A study of Oryctolagus cuniculus with 14 samples.

Results

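This account describes the 229 genes, of 23669 rabbit gene IDs counted, whose reads in the cornea were at least 50% lower in both groups of eyes exposed to sulfur mustard than in unexposed eyes. Levels are given in CPM, the reads of a gene scaled to a library total of 1000000 counted reads. The members were chosen by measured values, namely the group medians of these same libraries: a gene was taken when the median of the naive libraries was at least 2 CPM and the medians of the clinically non-impaired and of the clinically impaired libraries were each at most 0.5 times the naive median. Of the 8528 genes at or above 2 CPM in naive corneas, these 229 members are 2.69%. Another 357 genes met the limit in impaired corneas only, and 152 in non-impaired corneas only.

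The corneas came from New Zealand White rabbits. The groups were 5 corneas of clinically impaired eyes and 5 of clinically non-impaired eyes, both taken 4 weeks after exposure of the eye to sulfur mustard vapor, and 4 corneas of naive eyes. The labels give no sex, age or dose and no criteria for the clinical score. They also do not state whether each cornea came from its own rabbit. If some corneas shared a rabbit, they would not be independent and n would overstate the number of animals. Every p-value treats the corneas as independent and rests on a spread that may lie in part within animals. Library totals ran from 12002876 to 17488019 counts.

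Sulfur mustard is a vesicant that alkylates DNA and proteins, and in the eye an early injury of the corneal surface can be followed by a late keratopathy with epithelial defects, edema and ingrowth of vessels. The cornea is built of a stratified epithelium, a collagen-rich stroma kept by keratocytes, and an inner endothelium that keeps the stroma dehydrated. It also holds sensory nerve fibres and, at its rim, limbal stem cells next to the conjunctiva. A whole-cornea library pools all of these, so that fewer cells of a type and less RNA per cell cannot be told apart, and CPM also falls when other genes take a larger share of the reads. The files give gene IDs without names, and none of these IDs was found in the reference table used here, so the tissue label was not checked against cell type markers and the roles of the members are not given. Members are therefore described by their rank, and 4 of them by ID.

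The medians of all 3 groups chose the members, so their difference from naive corneas is a description and carries no test. The median member had 11.1 CPM in naive corneas, 3.62 CPM in non-impaired corneas and 3.30 CPM in impaired corneas. Naive medians ran from 2.02 to 3148 CPM. They were at least 10 CPM in 121 members and at least 100 CPM in 18. Relative to naive, the non-impaired median stood at 36.4% in the median member (quartiles 28.8% and 44.2%) and the impaired median at 31.3% (quartiles 23.6% and 40.3%). Falls far beyond the limit were few: both exposed medians were at or below 0.25 of naive in 25 members, and at or below 0.1 in 5. The impaired median was the lower of the exposed medians in 149 members and the higher in 80. Over all 8528 genes of at least 2 CPM in naive corneas the impaired median was the lower in 52.7%, against 65.1% of the members. Both exposed medians entered the rule, so nothing is read from this difference.

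**Figure D1:**
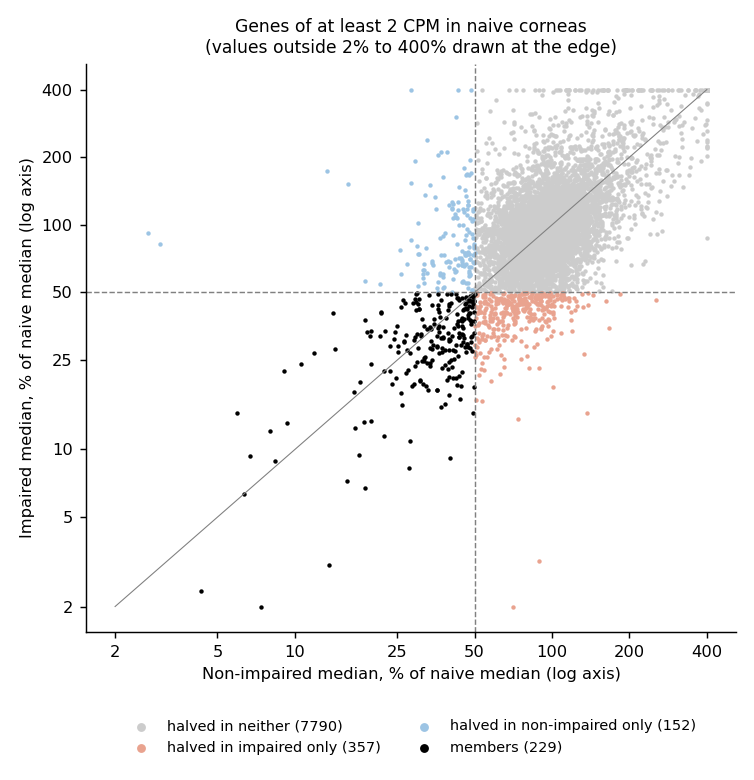
Median CPM of non-impaired (x axis) and impaired corneas (y axis) as a percentage of the naive median, both on log axes, for the 8528 genes of at least 2 CPM in naive corneas. Dashed lines mark 50%, the grey line marks equality, and the 229 members in black fill the corner below both dashed lines.

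The upper limit of 50% cut through a continuous range. The 3 members nearest to it had a higher exposed median of 49.79%, 49.85% and 49.96% of naive, and the 3 nearest genes outside it stood at 50.02%, 50.11% and 50.16%. A further 73 genes lay between 50% and 55%, and 63 members lay above 45%. At the floor, the 3 members with the lowest naive medians had 2.02, 2.06 and 2.08 CPM, and the 3 nearest genes left out had 1.94, 1.95 and 1.99 CPM.

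Together the members held 1.84% of all counts in naive 1, 1.57% in naive 2, 1.45% in naive 3 and 1.44% in naive 4. In non-impaired corneas they held 1.12% in replicate 1, 0.686% in replicate 2, 0.614% in replicate 3, 0.427% in replicate 4 and 0.632% in replicate 5. In impaired corneas the shares were 0.996% in replicate 1, 0.502% in replicate 2, 1.03% in replicate 3, 0.421% in replicate 4 and 0.515% in replicate 5. Non-impaired 1, impaired 1 and impaired 3 thus lay nearest to the naive corneas, and impaired 4 and non-impaired 4 farthest from them. The group means were 1.58% ± 0.18 in naive (SD, n = 4), 0.696% ± 0.258 in non-impaired (SD, n = 5) and 0.692% ± 0.294 in impaired corneas (SD, n = 5). The sum is dominated by few genes: the 8 most abundant members held 65.0% ± 2.7 of the members' counts in naive corneas (SD, n = 4).

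With every member given equal weight, the order of the libraries was much the same. The median member stood at 46.0% of its naive median in non-impaired 1, 40.2% in non-impaired 2, 31.4% in non-impaired 3, 24.8% in non-impaired 4 and 41.3% in non-impaired 5. It stood at 45.2% in impaired 1, 30.0% in impaired 2, 49.0% in impaired 3, 21.2% in impaired 4 and 25.7% in impaired 5. No exposed library reached the lowest naive library, naive 4 at 90.2%. The members were chosen for exposed medians of at most 50% of naive, so a gap of this kind follows from the rule. The loss was nevertheless uneven within an exposed cornea: 107 members exceeded 50% of their naive median in impaired 3, 104 in impaired 1 and 96 in non-impaired 1, but 6 did so in impaired 4. Only 30 members were at or below 50% in every one of the 10 exposed libraries.

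**Figure D2:**
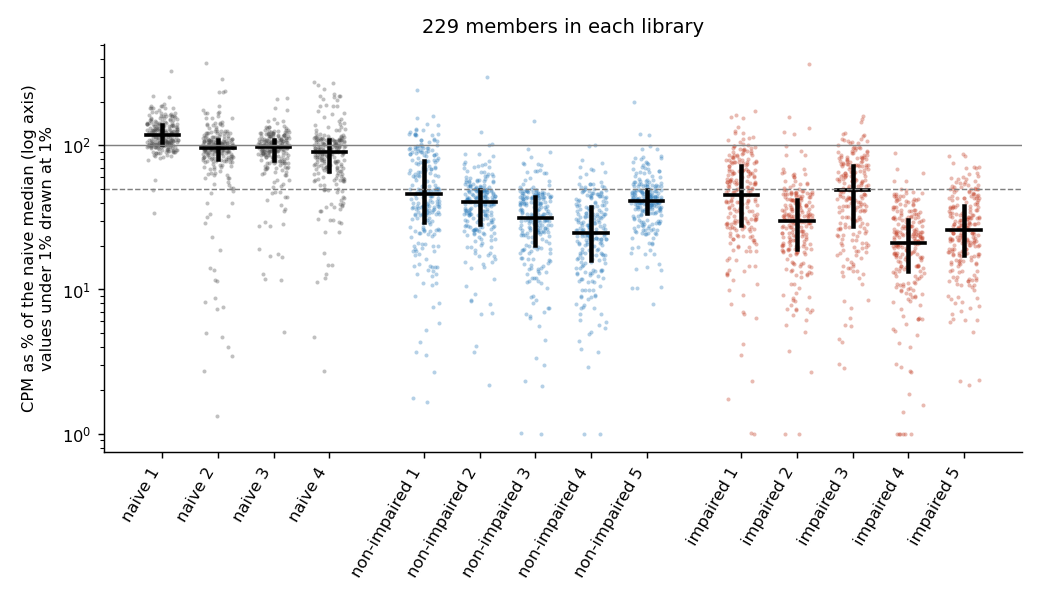
CPM of each of the 229 members as a percentage of its own naive median (log axis), 1 column of points per library, with the median as a horizontal bar and the quartiles as a vertical bar. Medians run from 90.2% to 118% in naive libraries and from 21.2% to 49.0% in exposed libraries.

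In 89 members, 38.9%, all 10 exposed libraries lay below all 4 naive libraries. Over all 10048 genes tested this was so for 4.89%, but the rule used this contrast and nothing is read from the difference. All impaired libraries lay below all naive libraries in 118 members (11.3% over all genes tested), and all non-impaired libraries did in 103 (14.5%). In the other members at least 1 exposed library reached the naive range.

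The 8 members with the most reads in naive corneas fell into 2 patterns. CPM is not divided by gene length, so this order is one of reads and not of transcripts. The most abundant member had 3936, 3505, 2731 and 2791 CPM in naive 1 to 4. In non-impaired 1 to 5 it had 3024, 1510, 1372, 676 and 1272 CPM. In impaired 1 to 5 it had 2601, 754, 2592, 995 and 782 CPM. Non-impaired 1 lay inside the naive range, impaired 1 and 3 lay just below it, and the other 7 exposed libraries were far lower.

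Members 4 to 7 in order of naive reads repeated this division of the libraries. The fourth had 1143, 996, 841 and 728 CPM in naive 1 to 4, then 1134, 480, 429, 220 and 343 CPM in non-impaired 1 to 5, and 916, 213, 966, 271 and 228 CPM in impaired 1 to 5. All of non-impaired 1, impaired 1 and impaired 3 were within its naive range. The fifth had 1179, 928, 859 and 810 CPM in naive 1 to 4, then 846, 410, 338, 157 and 295 CPM in non-impaired 1 to 5, and 721, 198, 770, 279 and 196 CPM in impaired 1 to 5. The sixth had 1098, 851, 616 and 903 CPM in naive 1 to 4, then 964, 362, 325, 157 and 316 CPM in non-impaired 1 to 5, and 711, 274, 670, 213 and 167 CPM in impaired 1 to 5. In both, the same 3 exposed libraries stood apart from the other 7. The seventh had 813, 688, 621 and 871 CPM in naive 1 to 4, then 681, 319, 254, 97.6 and 220 CPM in non-impaired 1 to 5, and 648, 185, 621, 228 and 160 CPM in impaired 1 to 5. In these 5 genes 3 exposed corneas held levels within or near the naive range, and the other 7 held far lower ones.

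The remaining 3 of the 8 were lower in every exposed library than in any naive library. The second most abundant member had 1812, 2357, 1948 and 1932 CPM in naive 1 to 4. In non-impaired 1 to 5 it had 715, 760, 764, 752 and 797 CPM, the tightest group among these 8 genes (757 ± 29.5 CPM, SD, n = 5). In impaired 1 to 5 it had 677, 974, 953, 532 and 1193 CPM. The third had 974, 1043, 1103 and 612 CPM in naive 1 to 4, then 497, 358, 435, 529 and 404 CPM in non-impaired 1 to 5, and 449, 357, 354, 245 and 433 CPM in impaired 1 to 5. The eighth had 543, 484, 603 and 627 CPM in naive 1 to 4, then 286, 329, 474, 276 and 250 CPM in non-impaired 1 to 5, and 236, 281, 375, 225 and 404 CPM in impaired 1 to 5. Non-impaired 3 came close to naive 2 in this gene, which is also the member closest to the 50% limit. No difference between the exposed groups passed in these 8 genes: their log2 fold changes lay between -0.27 and 0.21, with standard errors from 0.16 in the third to 0.47 in the fourth (edgeR quasi-likelihood test, adjusted p from 0.216 to 0.969).

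**Figure D3:**
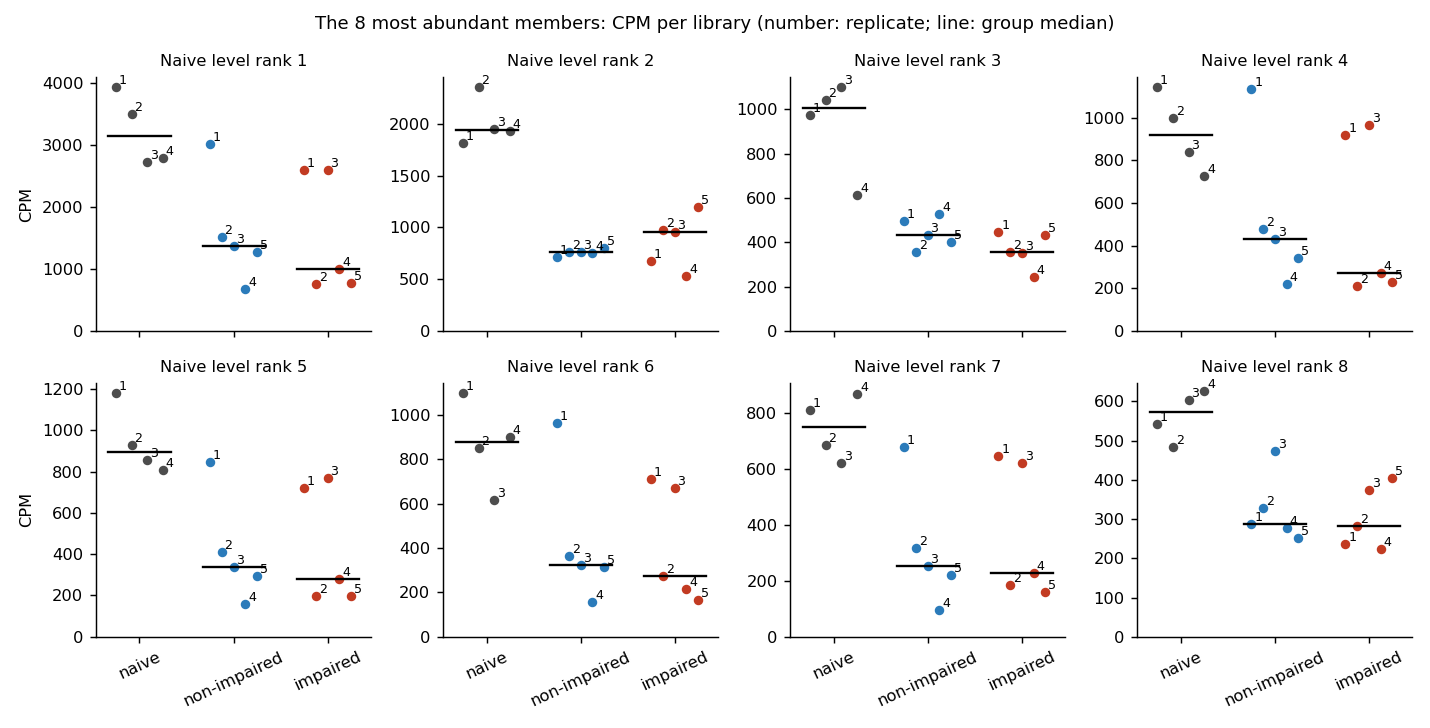
CPM (y axes from 0) of the 8 members with the highest naive medians in the 4 naive, 5 non-impaired and 5 impaired libraries; small digits give the replicate and lines the group medians. In ranks 1, 4, 5, 6 and 7 non-impaired 1, impaired 1 and impaired 3 stand above the other exposed libraries, and in ranks 2, 3 and 8 they do not.

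The same 3 libraries were the high ones in many members beyond the most abundant. Impaired 1 and impaired 3 were the 2 highest impaired libraries in 111 of 229 members, 48.5%, against 26.6% of the 8528 genes of at least 2 CPM in naive corneas. Non-impaired 1 was the highest non-impaired library in 98 members, 42.8%, against 24.8%. Both held in 83 members, 36.2%, against 9.73% of the 8528 genes. This division of the libraries was chosen after the values were seen, so these shares carry no test. It was not limited to the members. Both held in 31.7% of the 357 genes lowered in impaired corneas only and in 11.8% of the 152 lowered in non-impaired corneas only. Impaired 1 and impaired 3 were the 2 highest in 59.1% of the 357 genes and 14.5% of the 152. Non-impaired 1 was the highest in 40.6% of the 357 genes and 28.3% of the 152. At the low end, impaired 4 was the lowest impaired library in 44.1% of members (31.6% of the 8528 genes) and non-impaired 4 the lowest non-impaired library in 46.7% (21.8%). In the 357 genes these shares were 35.6% and 40.6%, and in the 152 genes 22.4% and 21.1%.

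In the 83 members that shared this order, the median level was 88.0% of naive in non-impaired 1, 75.9% in impaired 1 and 77.1% in impaired 3. It was between 22.8% and 42.3% in the other 4 non-impaired libraries and between 22.1% and 29.6% in the other 3 impaired libraries. In 64 of the 83, all of these 3 libraries were above 50% of the naive median. The 83 were picked by this order, so these high medians, and lower ones in the rest, follow from the split. In the other 146 members the medians were 34.4% in non-impaired 1, 32.8% in impaired 1 and 35.5% in impaired 3, with a range of 17.9% to 42.3% over the other 7 exposed libraries. Impaired 3 and impaired 1 were still the highest impaired libraries there. The total counts of the 3 libraries were 16831750 for non-impaired 1, 12002876 for impaired 1, the lowest of all 14, and 15954635 for impaired 3. Whether depth or another technical factor goes with this order was not tested.

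**Figure D4:**
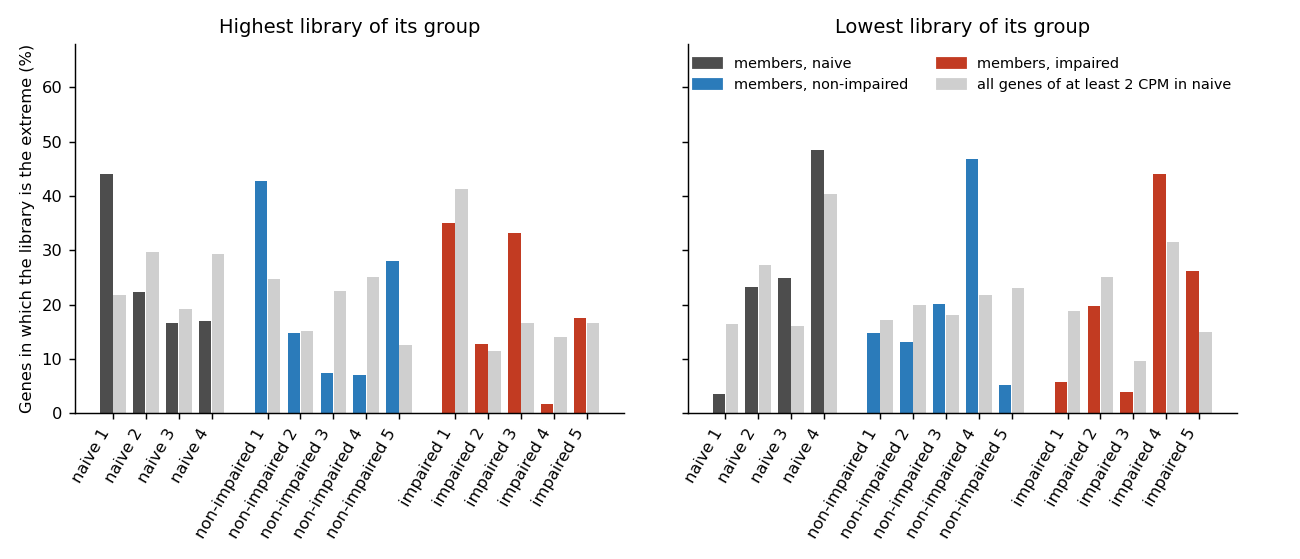
Percentage of genes in which each library is the highest (left) or the lowest (right) of its own group, for the 229 members (coloured bars, by group) and for all 8528 genes of at least 2 CPM in naive corneas (grey bars). Non-impaired 1 is highest in 42.8% of members and impaired 4 is lowest in 44.1%.

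The naive corneas were not uniform for these genes either. Naive 1 was the highest naive library in 44.1% of members, against 21.7% of the 8528 genes, and naive 4 the lowest in 48.5%, against 40.4%. This order was not particular to the members. In the 357 genes lowered in impaired corneas only, naive 1 was the highest in 39.5% and naive 4 the lowest in 66.1%. In the 152 genes lowered in non-impaired corneas only, naive 1 was the highest in 9.87%. Naive 4 was the lowest there in a smaller share than in the 8528 genes. The naive medians entered the rule, so these shares carry no test. In 61 members at least 1 naive library was itself at or below 50% of the naive median. In 18 of them 2 of the 4 naive libraries were, so that the naive median fell into the gap between 2 high and 2 low corneas. Naive 1 and naive 4 were the high pair in 14 of these 18. In those 14 genes the median level was 181% of the naive median in naive 1, 217% in naive 4, 11.6% in naive 2 and 18.2% in naive 3. Among exposed corneas the same genes were highest in impaired 2 (62.4%) and non-impaired 5 (49.0%), and between 10.2% and 31.7% in the other 8. In 8 of the 14, naive 2 and naive 3 were both at or below the higher exposed median, so the lower level in exposed corneas rested there on naive 1 and naive 4.

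The 8 members with the deepest fall, ranked by the higher of the exposed medians relative to naive, had naive medians of 2.20 to 14.4 CPM. The deepest fall was of the kind just described: this gene had 26.9, 0.327, 2.26 and 14.2 CPM in naive 1 to 4. It had 0.356, 0.302, 0.0831, 0.416 and 2.75 CPM in non-impaired 1 to 5, and 0.0833, 1.59, 0.251, 0.0673 and 0.193 CPM in impaired 1 to 5. Its naive median of 8.23 CPM was 23.1 times the higher exposed median, yet naive 2 and naive 3 lay inside the exposed range. The fourth and the sixth in depth had the same shape. The fourth had 8.92, 1.18, 0.849 and 10.9 CPM in naive 1 to 4, 0.178, 0.423, 0.333, 0.499 and 2.69 CPM in non-impaired 1 to 5, and 1.00, 2.71, 0.376, 0.135 and 0.451 CPM in impaired 1 to 5. The sixth had 16.2, 0.653, 1.56 and 24.6 CPM in naive 1 to 4, 0.713, 0.363, 0.499, 1.25 and 4.64 CPM in non-impaired 1 to 5, and 1.17, 8.20, 0.501, 1.08 and 0.451 CPM in impaired 1 to 5. In all 3 genes the higher exposed values were those of non-impaired 5 and impaired 2.

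The second deepest fall was shared by all naive corneas. This gene had 21.6, 13.3, 15.6 and 8.15 CPM in naive 1 to 4. It had 0.535, 1.15, 0.914, 0.416 and 3.49 CPM in non-impaired 1 to 5, and 0.916, 1.06, 0.627, 0.740 and 1.74 CPM in impaired 1 to 5. The highest exposed library, non-impaired 5, was thus still under the lowest naive library, and the naive median was 15.8 times the higher exposed median. The counts behind it were 938 in naive, 105 in non-impaired and 75 in impaired corneas. Of the members with naive medians of at least 10 CPM, this one had the deepest fall.

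The third in depth had 4.17, 3.07, 3.68 and 3.06 CPM in naive 1 to 4 and 0.0594, 0.484, 0.249, 0.249 and 0.344 CPM in non-impaired 1 to 5. In impaired corneas it had no count in replicates 1, 2 and 4, 0.188 CPM in replicate 3 and 0.580 CPM in replicate 5. It was the only member with an impaired median of 0, and its libraries without a count allow up to 0.2499, 0.198 and 0.202 CPM (3 counts per library, for counting error only). The fifth had 3.03, 1.83, 4.17 and 5.99 CPM in naive 1 to 4, 0.0594, 0.242, 0.0831, 0.416 and 0.286 CPM in non-impaired 1 to 5, and 0.0833, 0.264, 0.752, 0.336 and 0.708 CPM in impaired 1 to 5. The seventh had 8.52, 3.53, 5.52 and 2.22 CPM in naive 1 to 4, 0.238, 0.423, 0.582, 0.166 and 0.630 CPM in non-impaired 1 to 5, and 0.833, 0.595, 1.19, 0.538 and 0.322 CPM in impaired 1 to 5. In these 3 genes no exposed library reached a naive library. The eighth had 2.63, 1.76, 4.599 and 0.0599 CPM in naive 1 to 4, and naive 4 was as low as the exposed corneas. It had 0.297, 1.27, 0, 0.748 and 0.229 CPM in non-impaired 1 to 5 and 0.583, 0, 0.0627, 0.0673 and 0.386 CPM in impaired 1 to 5.

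The comparison of impaired with non-impaired corneas did not enter the rule, although the rule caps both exposed medians. It asks whether clinical impairment went with a further difference in genes whose medians were low in both exposed groups, though not in every exposed cornea. Of the 229 members, all of which were tested, 12 passed. Impaired corneas had more reads of 2 of them and fewer reads of 10 (quasi-likelihood test of edgeR, Benjamini-Hochberg adjusted over 10048 genes, threshold 0.05). Over all genes tested 18.4% were called higher and 14.4% lower, 32.7% in all, against 5.24% of the members. The exposed groups did not overlap in 4 members, all lower in impaired corneas, which is 1.75% of members against 7.16% of all genes tested in that direction (19.0% in either direction). The median log2 fold change was -0.09 among members and 0.00 over all genes tested. It was -0.65 in the 357 genes lowered in impaired corneas only and 0.90 in the 152 lowered in non-impaired corneas only. The rule leaves out those genes, in which only 1 exposed median met the limit. A low share of calls and a median close to that of all genes can follow from this, so nothing is read from either.

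The members also varied more within groups than the genes tested as a whole. The rule limits group medians only, so genes with some exposed libraries near naive could enter. Part of this spread can therefore follow from the choice of members. The median standard error of the log2 fold change was 0.44 in members and 0.16 over all genes tested. The median coefficient of variation within a group was 29.1% in naive, 48.6% in non-impaired and 58.7% in impaired corneas for the members. It was 12.7%, 11.7% and 17.4% for the 8528 genes of at least 2 CPM in naive corneas, whose median naive level was 34.0 CPM against 11.1 CPM. The biological coefficient of variation, which leaves out counting error, was 44.9% in the median member and 18.2% in the median gene tested. It was 29.6% in the 357 genes lowered in impaired corneas only and 33.5% in the 152 lowered in non-impaired corneas only. The part of this spread in the low share of calls was not tested, and genes that did not pass are not shown to be equal in the exposed groups. The 2 counts depend on single libraries. Without impaired 1, 16 members were lower, without impaired 2 there were 6 and without impaired 4 there were 5. Over all genes tested, 1442 were lower with all libraries. Without impaired 1 there were 1890 such genes, without impaired 2 there were 1090 and without impaired 4 there were 1305. Of higher members there was 1 when replicate 2 or 3 of the impaired or replicate 2, 3 or 4 of the non-impaired corneas was left out, and 0 without impaired 5. Over all genes tested, 1844 were higher with all libraries and 1531 to 1722 in these fits.

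The 12 members that passed were not the most abundant ones: their naive medians ran from 3.21 to 100.3 CPM. In 8 of them every exposed library was below every naive library, against 38.9% of the 229 members and 4.89% of all genes tested. The rule used this contrast, so nothing is read from that count. Of the 12, 1 was among the 83 members that were highest in impaired 1, impaired 3 and non-impaired 1. Those 83 are 36.2% of the 229, and this count carries no test. The exposed groups did not overlap in 3 of the 12, and none of the members given by ID is among these 3. The log2 fold changes of these 3 were -1.44, -1.18 and -1.26 (edgeR quasi-likelihood test, adjusted p = 0.00317, 0.00784 and 0.0294). Alternatives are given below only for the members given by ID. Log2 fold changes of the 10 lower members lay between -1.67 and -0.80.

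The members with more reads in impaired corneas lay there nearer to naive. ENSOCUG00000012534 had 10.9, 11.8, 9.62 and 9.29 CPM in naive 1 to 4, 1.78, 2.54, 3.08, 2.66 and 4.18 CPM in non-impaired 1 to 5, and 3.08, 4.43, 7.58, 4.31 and 8.69 CPM in impaired 1 to 5. Impaired 3 and 5 were the high libraries, impaired 1 overlapped the non-impaired corneas, and no exposed cornea reached a naive one. The means were 5.62 ± 2.39 CPM in impaired and 2.85 ± 0.88 CPM in non-impaired corneas (SD, n = 5 each), and the log2 fold change was 0.98 ± 0.29 (SE, edgeR adjusted p = 0.0182). The call was lost without impaired 5 (log2 fold change 0.78, edgeR adjusted p = 0.0521, range over the alternatives 0.00409 to 0.0521). ENSOCUG00000006945 had 127, 47.2, 132 and 73.9 CPM in naive 1 to 4, 20.02, 24.7, 13.6, 21.8 and 26.1 CPM in non-impaired 1 to 5, and 29.0, 42.8, 40.6, 24.2 and 50.2 CPM in impaired 1 to 5. Impaired 4 overlapped the non-impaired corneas, and impaired 5 exceeded naive 2. The log2 fold change was 0.82 ± 0.28 (SE, edgeR adjusted p = 0.0393), and 9 of 21 alternatives lost the call: limma voom, no filter on low counts, and leaving out impaired 2, 3 or 5 or non-impaired 1, 2, 3 or 4 (adjusted p over all 21 from 0.0147 to 0.0949).

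The lower members went further down in impaired corneas. ENSOCUG00000015404 had 11.4, 7.77, 9.98 and 6.29 CPM in naive 1 to 4, 4.34, 3.51, 0.914, 2.49 and 1.203 CPM in non-impaired 1 to 5, and 1.42, 0.330, 1.07, 0.471 and 0.966 CPM in impaired 1 to 5. Non-impaired 3 and 5 overlapped the impaired corneas. The log2 fold change was -1.57 ± 0.44 (SE, edgeR adjusted p = 0.0148), and of 21 alternatives only limma voom lost the call (adjusted p = 0.0706, range 0.00211 to 0.0706). ENSOCUG00000027574 had 8.69, 10.4, 7.29 and 10.8 CPM in naive 1 to 4, 1.19, 3.14, 2.66, 0.582 and 3.72 CPM in non-impaired 1 to 5, and 0.667, 0.793, 1.25, 0.135 and 1.16 CPM in impaired 1 to 5. Non-impaired 1 and 4 overlapped the impaired corneas. The log2 fold change was -1.50 ± 0.49 (SE, edgeR adjusted p = 0.0323) on 176 non-impaired and 60 impaired counts. Of 21 alternatives 9 lost this call: limma voom, the fit without naive libraries, the fit without impaired 1 and naive 4, and leaving out impaired 1, 2 or 4 or non-impaired 2, 3 or 5 (adjusted p over all 21 from 0.00832 to 0.102).

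**Figure D5:**
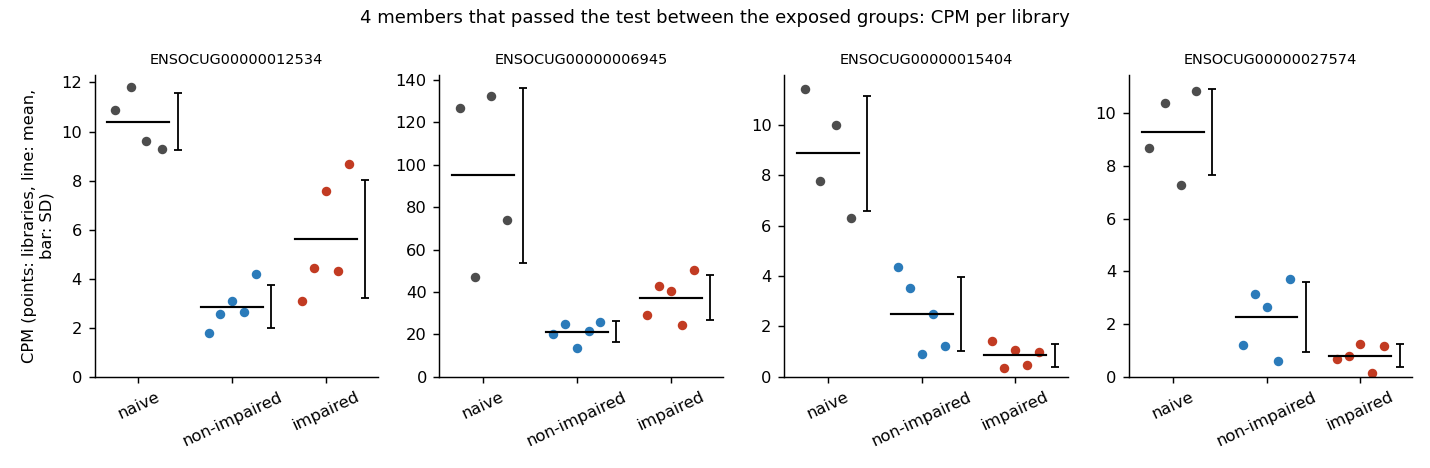
CPM (y axes from 0) per library for the 4 members given by ID in naive, non-impaired and impaired corneas, with the group mean as a line and the SD as a bar. The 2 genes on the left have more reads in impaired corneas and the 2 on the right fewer, and in each the exposed groups overlap.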

How the data were processed

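RNA from whole corneas was kept in RNAlater and extracted with Tri-reagent, and TruSeq libraries were made, per the labels' protocols. The authors deposited raw counts per Ensembl gene, 1 file for each of 14 libraries. The genome build was OryCun2.0, and Cufflinks 2.0.2, DESeq, TopHat2 2.1.0 and bcl2fastq 2.17 were used, per the submitters' processing notes. The counting program, its strand setting and the annotation release are not given in the sources used here, so genes that overlap or have close copies are uncertain. None of the 23669 IDs was found among 38822 RefSeq genes (mOryCun1.1, used for names only), so lists by symbol were not used and no sequence is shown.

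CPM are counts scaled to a library total of 1000000. Groups follow the clinical status in the labels, and replicate numbers only name libraries. No pair of libraries was near identical (lowest chi-square per degree of freedom 14.1). The members and the tests were chosen with earlier results of these data known. All 3 groups entered 1 edgeR 4.0.16 quasi-likelihood fit (R 4.3.3, TMM factors 0.924 to 1.058, default filter, 10048 genes, robust), with standard errors from the fold change and F statistic. IDs are printed for the 2 members with the largest log2 fold change in each direction among those that passed and averaged 2 CPM or more in the exposed group with more reads. Other members described are the 8 with the highest naive medians and the 8 with the deepest fall. Alternatives were DESeq2 size factors, other filters, DESeq2 1.42.0, limma 3.58.1 with voom, a fit without naive libraries, a minimum fold change, other forms of the rule, and leaving out each library. The fit without impaired 1 and naive 4 was chosen after seeing the data. The fits were tested on simulated data.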

Additional observations from a re-analysis of the deposited data

Results flagged for a closer look

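Single libraries stood far from the rest of their group in 8 of 66 groups of 4 or 5 libraries examined. In these 8 the gap to the nearest other library was 0.716 to 0.908 of the range of the group. All 8 were exposed libraries above the rest of their group. The rule caps exposed medians and leaves room for single high libraries, so this count is not set against a chance rate. Among the most abundant members, non-impaired 1 was apart at 1134 CPM in the fourth (others 220 to 480 CPM) and at 964 CPM in the sixth (others 157 to 362 CPM). Among the members with the deepest fall, non-impaired 5 was apart in 4 genes: at 2.75 CPM in the first (others 0.0831 to 0.416 CPM), 3.49 CPM in the second (others 0.416 to 1.15 CPM), 2.69 CPM in the fourth (others 0.178 to 0.499 CPM) and 4.64 CPM in the sixth (others 0.363 to 1.25 CPM). Impaired 2 was apart at 1.59 CPM in the first (others 0.0673 to 0.251 CPM) and at 8.20 CPM in the sixth (others 0.451 to 1.17 CPM). Members that vary together are not independent, so these 8 values are not 8 separate observations.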

How the results depend on the processing

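The rule gave 191 genes with TMM-scaled CPM, 190 of them among the 229, and 185 with group means, 164 of them among the 229. Leaving out 1 library gave 167 (without naive 1) to 263 genes (without naive 2), and leaving out impaired 1 and naive 4 gave 253, of which 197 were among the 229. The edgeR filter removed no member. The count of members with more reads in impaired than in non-impaired corneas was 1 without a filter on low counts, 0 with an absolute log2 fold change of at least 1, and 0 to 3 when 1 library was left out. The count of members with fewer reads was 16 with the DESeq2 test and 5 to 16 when 1 library was left out. Over all genes tested, 1662 had fewer reads with the DESeq2 test, against 1442 with edgeR. With 1 library left out, 1474 to 1945 genes had more reads and 1090 to 1890 fewer. In every fit run, the share of members called stayed below that of all genes tested, at most 8.33% of members (without impaired 1, 38.4% of all genes). The rule can produce this lower share, so nothing is read from it. The median log2 fold change of the members was 0.01 without impaired 4 and 0.04 without non-impaired 1, and negative in the other fits. The 4 genes given by ID kept their direction in all 21 alternatives. No paired analysis was possible because replicates were numbered in accession order and nothing in the labels ties a number to an animal or batch.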
